A study of Mus musculus with 6 samples.

Results

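The genes described here are named for the proteins of the cytosolic ribosome. They were taken from the count table by symbol, as every row named Rpl or Rps followed by a number, with the stalk proteins Rplp0 to Rplp2 and Rpsa, without pseudogene symbols (-ps) and S6 kinases (Rps6k). The members were thus chosen by name and by 1 measured value, the summed count. This rule and the gene lists used below were set with earlier results of these data known, so the choice was not blind to those results. A minimum of 100 counts summed over the 6 libraries was part of the rule and removed 0 rows, with Rpl3l (241 counts) and Rpl32l (462 counts) just inside it. Of 27482 rows, 85 were members, 53 of the large and 32 of the small subunit. The paralogues among them are Rpl3l, Rpl6l, Rpl7l1, Rpl22l1, Rpl32l, Rpl36al, Rpl39l and Rps27l. Of these, Rpl6l and Rpl32l are annotated as processed pseudogenes in GENCODE vM21, although their symbols do not say so, and the counts do not show whether they encode a protein.

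Of the 6 libraries sequenced, 3 were labelled AAV9-hFNDC4 (FNDC4 overexpression) and 3 AAV9-CTRL (control vector), and both groups of male mice had I/R surgery, in which the blood supply of the heart is blocked and then restored. The hearts were collected 24 h later. AAV9 is an adeno-associated virus serotype used for gene delivery to the heart. The sources used here do not give strain, age, the promoter of the vector or whether each library is 1 animal. The p-values therefore reflect only how far these libraries vary, and that variation may be technical. Fndc4 itself was not analysed here. Total counts per library lay between 32975817 and 36074046. Markers went against the tissue label, since 4 of 16 cardiomyocyte markers reached 1 CPM (counts scaled to a fixed library total) in at least 3 libraries. Among these 4 was the member Rpl3l, which reached 1 CPM only in the AAV9-CTRL libraries. Myh6 averaged 0.276 CPM, and Myl7, Pln and Nkx2-5 had no counts, while Tnnt2 averaged 44.6 CPM. The libraries are therefore named by their labels, and no value is assigned to heart muscle.

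A ribosome is built from ribosomal RNA and one copy of most of its proteins, so their genes are usually expressed together and at high levels in every cell. The small subunit reads the messenger RNA, and the large subunit joins the amino acids. Most of these transcripts begin with a C followed by a run of pyrimidines, the 5′ terminal oligopyrimidine (TOP) tract, through which mTOR and LARP1 control their translation and storage.

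The start regions of 6 members are shown because the TOP tract lies at the start. They are the 3 members with the largest and the 3 with the smallest fall among those with a pyrimidine run at the annotated start. Each window runs from 40 bases before to 20 bases from the RefSeq start (GRCm38.p6), 5′ to 3′ on the gene's strand, and capitals mark the pyrimidine run from the first C that lies within 5 bases of the start. In Rpl7a, further pyrimidines stand directly before the capitals.
Rpl32l, chr10:20208399-20208458, plus strand: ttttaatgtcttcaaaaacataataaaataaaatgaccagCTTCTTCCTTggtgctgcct
Rps21, chr2:180257339-180257398, plus strand: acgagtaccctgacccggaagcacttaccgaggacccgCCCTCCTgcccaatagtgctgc
Rps18, chr17:33955646-33955705, minus strand: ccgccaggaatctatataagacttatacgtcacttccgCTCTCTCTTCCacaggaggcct
Rpl15, chr14:18270967-18271026, minus strand: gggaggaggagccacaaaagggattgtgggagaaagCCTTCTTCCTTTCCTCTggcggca
Rps6, chr4:86857348-86857407, minus strand: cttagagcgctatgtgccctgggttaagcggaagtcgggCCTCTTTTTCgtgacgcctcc
Rpl7a, chr2:26910767-26910826, plus strand: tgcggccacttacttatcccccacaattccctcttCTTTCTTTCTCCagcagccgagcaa

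All 85 members were lower in the libraries labelled AAV9-hFNDC4, and 0 were higher (edgeR quasi-likelihood test, Benjamini-Hochberg adjusted over 14663 genes, threshold 0.05). Over all genes tested, 47.1% were called, 25.0% lower and 22.1% higher. The median log2 fold change of the members was -0.82, or 1.76-fold lower, against 0.01 over all genes. With a correction for transcript length, the members' median was -0.40, or 1.32-fold lower, and 75 of 85 were called. With library totals in place of TMM scaling, the median of all genes moved to 0.16 and that of the members to -0.66, and 38.3% of all calls were lower ones, against 53.1% with TMM scaling. The groups did not overlap in any of the 85 members, with each one lower, while 29.5% of all genes tested were lower without overlap. Fewer cells of a type and less RNA per cell cannot be told apart in such bulk libraries.

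Most members had values close to the median. A log2 fold change under -1 was seen in 18 members, 62 lay between -1 and -0.5, and 5 lay above -0.5. The lowest value was that of Rpl3l at -3.06 and the highest that of Rpl3 at -0.36. The plot of fold changes by gene shows both ends.

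**Figure D1:**
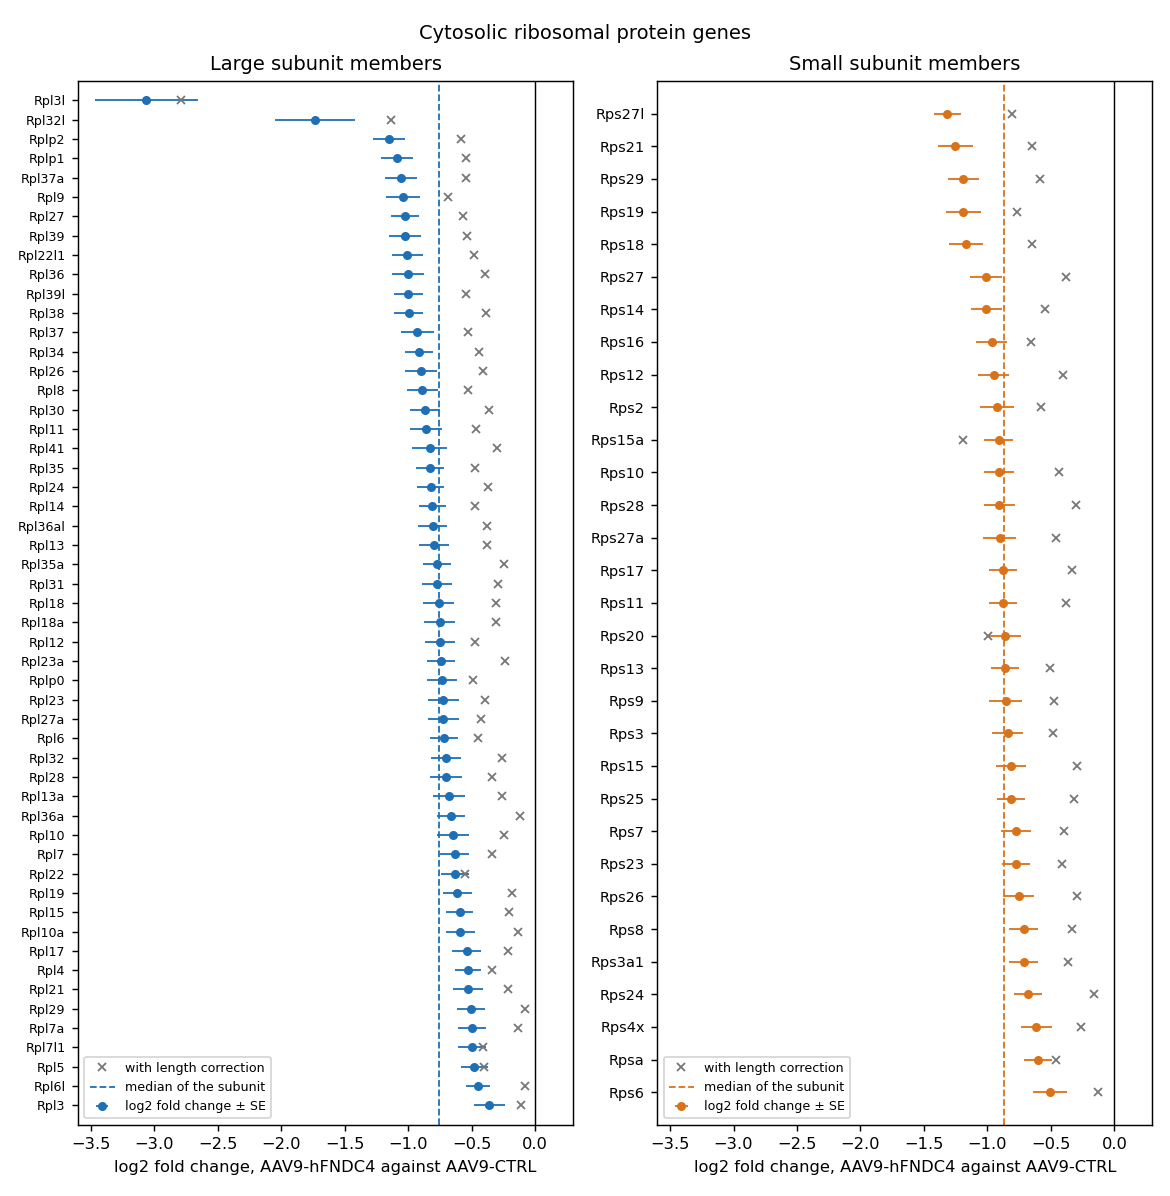
Log2 fold change (horizontal axis) of 84 of the 85 members, by subunit, as points with the SE; crosses give the value after correction for transcript length, and dashed lines the subunit medians of -0.76 and -0.87. Every point lies below 0, and most crosses lie closer to 0 than their points.

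Taken as a share of all counts, the members made up 5.76%, 5.52% and 5.69% of the libraries labelled AAV9-hFNDC4 (replicates 1, 2 and 3), and 7.49%, 9.67% and 8.88% of those labelled AAV9-CTRL. The AAV9-hFNDC4 libraries were close to each other, and the AAV9-CTRL libraries spread more widely without reaching them. AAV9-CTRL replicate 1 had the lowest level among the 3 control libraries in 84 of 85 members, and replicate 2 the highest in 71. Without AAV9-CTRL replicate 1, all 85 members were again called lower, with a median log2 fold change of -0.88. Without AAV9-CTRL replicate 2 the median was -0.745, and 84 were called lower, Rpl3 being the exception. Genes detected numbered 18717 to 18863 in the AAV9-hFNDC4 and 20431 to 20870 in the AAV9-CTRL libraries, and mitochondrial genes took 2.15% to 2.31% against 0.95% to 2.07% of counts. Genes detected were thus lower, like the members, and the mitochondrial share was higher, each without overlap. Their part in the result was not tested.

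**Figure D2:**
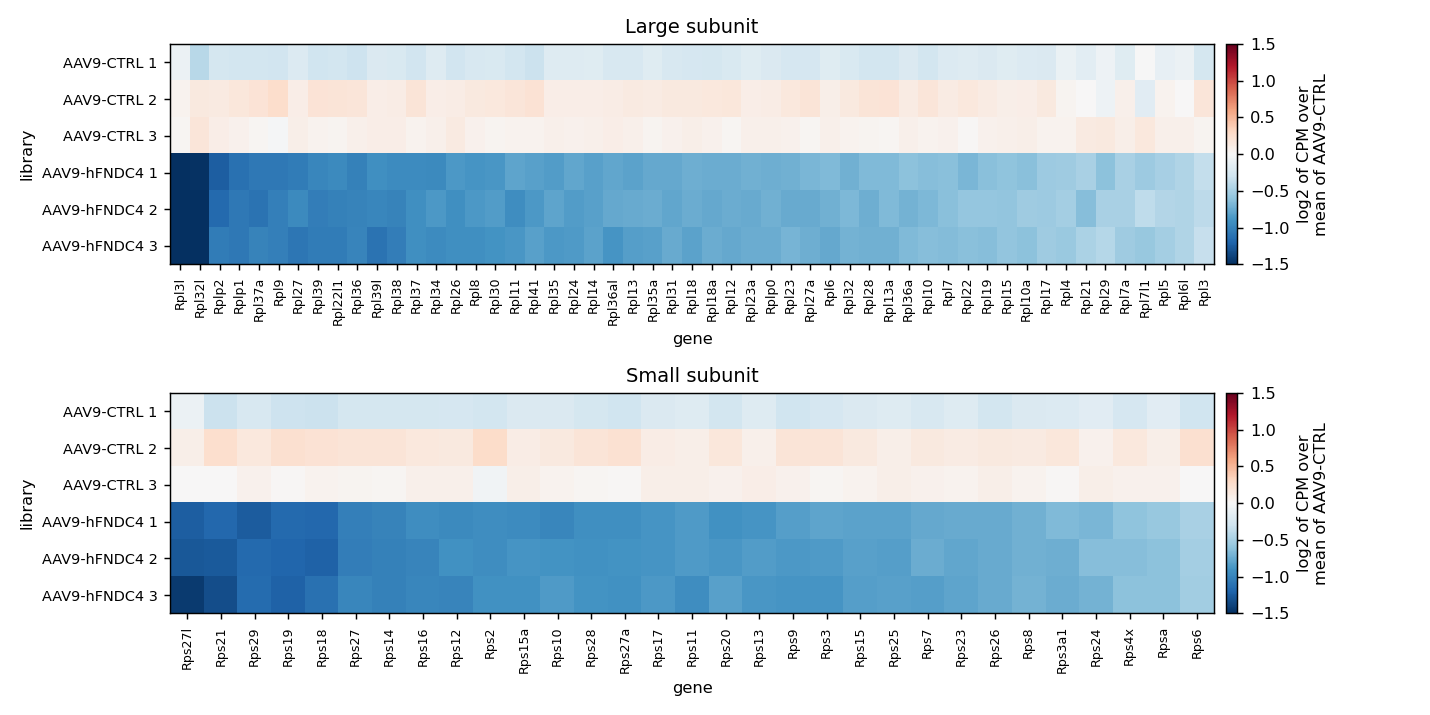
Log2 of CPM over the mean of the AAV9-CTRL libraries (colour, limited to ±1.5) for 84 of the 85 members (columns, ordered by fold change) in each library (rows). The 3 AAV9-hFNDC4 rows are below 0 throughout, and AAV9-CTRL replicate 1 lies below the other control rows except in Rpl7l1.

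The median fall was larger for small than for large subunit genes. The median log2 fold change was -0.87 over the 32 small subunit members (range -1.31 to -0.51) and -0.76 over the 53 large subunit members (range -3.06 to -0.36). Without the paralogues, the medians were -0.86 over 31 and -0.75 over 46 genes. These medians are descriptions, since members are not replicates. The counts of large subunit genes divided by those of small subunit genes gave 1.65, 1.66 and 1.65 in the AAV9-hFNDC4 libraries and 1.58, 1.56 and 1.58 in the AAV9-CTRL libraries. These ratios did not overlap, with means of 1.66 ± 0.00569 (SD, n = 3) and 1.57 ± 0.0123 (SD, n = 3). With the length correction described below, the difference between the subunit medians shrank from -0.11 to -0.04.

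**Figure D3:**
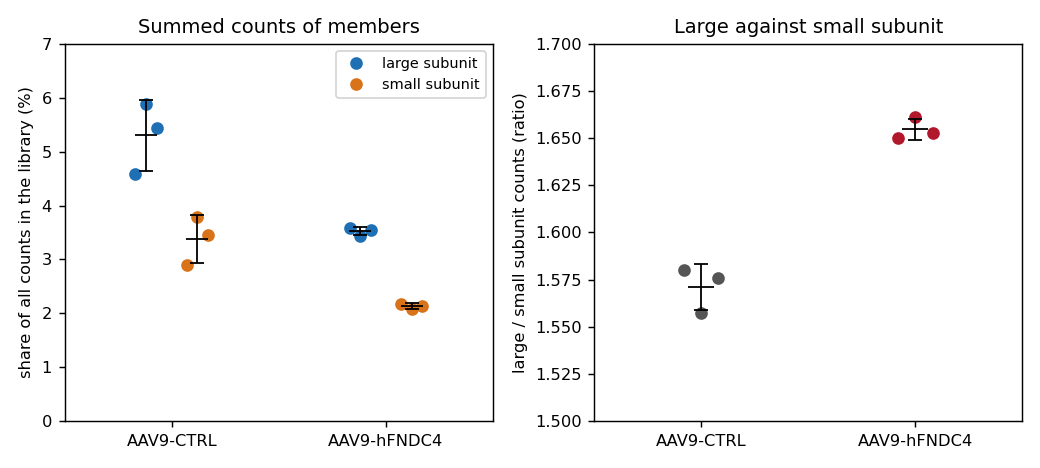
Left, share of all counts (%) taken by large and by small subunit genes in each library; right, counts of large divided by those of small subunit genes, on an axis that starts at 1.5. Points are libraries, bars the mean ± SD of 3; shares are lower and the ratio is higher in the AAV9-hFNDC4 libraries.

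Among small subunit genes outside the paralogues, Rps21, Rps29, Rps19 and Rps18 fell most. Rps21 (chromosome 2, 180257377 to 180258445 in GRCm38, plus strand) encodes one of the shorter proteins of the subunit. Its level was 222, 209 and 199 CPM in the AAV9-hFNDC4 libraries and 401, 598 and 504 CPM in the AAV9-CTRL libraries, a log2 fold change of -1.25 (SE 0.14, adjusted p = 4.97e-05). Rps29 (chromosome 12, 69157722 to 69159186, minus strand), a zinc-binding protein, stood at 400.3, 421 and 426 CPM against 800, 1055 and 990 CPM, a log2 fold change of -1.19 (SE 0.12). Every AAV9-hFNDC4 library lay below every control library for both genes. Rps19 (chromosome 7, 24884371 to 24889806, plus strand), the gene most often mutated in Diamond-Blackfan anaemia, had 514, 507 and 496 CPM against 931, 1359 and 1168 CPM, a log2 fold change of -1.19 (SE 0.13). Rps18 (chromosome 17, 33951999 to 33956001, minus strand) had 193, 189 and 202 CPM against 349, 508 and 454 CPM, a log2 fold change of -1.17 (SE 0.13). Rps18 and Rps21 are among the sequences printed above, as is the small subunit gene Rps6, which had a smaller fall.

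At the other end of the small subunit were Rps6 and Rpsa. Rps6, the substrate of S6 kinase downstream of mTOR (chromosome 4, 86854660 to 86857412, minus strand), had 1036, 1017 and 1009 CPM against 1177, 1720 and 1463 CPM. The groups did not overlap, but AAV9-CTRL replicate 1 was close to the AAV9-hFNDC4 libraries, and the log2 fold change was -0.51 (SE 0.13, adjusted p = 0.00841). Rpsa, also known as the precursor of the laminin receptor, stood at 1584, 1527 and 1532 CPM against 2080 (replicate 1), 2499 and 2464 CPM, a log2 fold change of -0.60 (SE 0.11). Rps27a, which is made as a fusion with ubiquitin, had 580, 591 and 586 CPM against 893, 1287 and 1108 CPM, a log2 fold change of -0.90 (SE 0.13). Its level was thus 53.4% of that in the control libraries.

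In the large subunit, the members of the stalk had unequal values. The stalk draws translation GTPases to the ribosome, and Rplp0 carries the small acidic proteins Rplp1 and Rplp2. Rplp2 had 485, 505 and 548 CPM against 947, 1252 and 1216 CPM, a log2 fold change of -1.15 (SE 0.13). Rplp1 had 777, 801 and 803 CPM against 1396, 1901 and 1762 CPM, a log2 fold change of -1.09 (SE 0.13). Rplp0 had 2789, 2801 and 2769 CPM against 3990, 5007 and 4890 CPM, a log2 fold change of -0.73 (SE 0.12). The length-corrected values of Rplp2, Rplp1 and Rplp0 were -0.58, -0.55 and -0.49. Rplp0 and Rplp1 were among the 6 members with the highest level per kb of transcript.

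Rpl5 and Rpl11 bind 5S ribosomal RNA together and, when free, bind MDM2. Rpl5 had 1171, 1217 and 1160 CPM against 1509, 1706 and 1732 CPM, a log2 fold change of -0.48 (SE 0.10). Rpl11 had 528, 478 and 498 CPM against 754, 1034 and 940 CPM, a log2 fold change of -0.86 (SE 0.13). Corrected for length, these were -0.40 and -0.46. Rpl3, which reaches the peptidyl transferase centre (chromosome 15, 80077791 to 80091868, minus strand), had 1092, 1064 and 1100 CPM against 1159, 1582 and 1438 CPM. Its log2 fold change of -0.36 (SE 0.12, adjusted p = 0.0311) was the smallest of all members. Rpl3 is also the member whose call was lost in most alternatives, among them leaving out any one library except AAV9-CTRL replicate 1, with -0.26 without AAV9-CTRL replicate 2 and an adjusted p between 0.0811 and 0.105 in these 5 cases.

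Scaled to transcript length, the highest levels were those of Rpl41, Rplp0, Rps24, Rps15, Rplp1 and Rpl13. Rpl41, which encodes the shortest protein of the ribosome, reached 2820 CPM per kb in the AAV9-hFNDC4 libraries, and Rps24 reached 2081 CPM per kb. Rpl41 had 1499, 1454 and 1502 CPM against 2106, 3073 and 2747 CPM, a log2 fold change of -0.83 (SE 0.14). Rps24 fell by 0.68 on the log2 scale (SE 0.11), Rps15 by 0.82 (SE 0.12) and Rpl13 by 0.79 (SE 0.12). Across the 85 members, genes with higher CPM had smaller falls, with Spearman's rho at 0.356 and Pearson's r, on log2 CPM, at 0.608. Rpl3l and Rpl32l had both the lowest CPM and the largest falls, which weighs on Pearson's r, and it was not computed without them. Both coefficients are descriptions across genes that share the same libraries.

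Relative to the sum over all members, 35 members took a lower share of the ribosomal protein counts in every AAV9-hFNDC4 library than in any control library, 25 took a higher share and 25 overlapped. Scaled by the same sum, 5.60% of all genes tested were lower without overlap and 68.1% higher. The sum was lower in the AAV9-hFNDC4 libraries, so this scaling raises other genes there. Among members, a lower share of some means a higher share of others. The percentages are therefore no yardstick for the members' split. Of the small subunit, 18 genes had a lower and 6 a higher share, and of the large subunit 17 had a lower and 19 a higher share. Rpl3 took 2.03% ± 0.0441 of the ribosomal protein counts in the AAV9-hFNDC4 libraries and 1.51% ± 0.0381 in the AAV9-CTRL libraries (SD, n = 3). Rps19 took 0.944% ± 0.0116 and 1.25% ± 0.0771 (SD, n = 3). Rpl4, Rpl5, Rpl7a and Rps6 were among the members with a higher share, and Rps21, Rps29, Rplp1 and Rplp2 among those with a lower one.

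Paralogues are extra gene copies, some used mainly in particular tissues. Rpl3l replaces Rpl3 in heart and skeletal muscle (chromosome 17, 24727820 to 24736143, plus strand). It had 11, 10 and 7 counts in the AAV9-hFNDC4 libraries against 70, 70 and 73 in the AAV9-CTRL libraries, or 0.254 ± 0.0557 against 2.15 ± 0.108 CPM (SD, n = 3). The log2 fold change was -3.06 (SE 0.41, adjusted p = 0.000148). Counts of Rpl3l per 100 counts of Rpl3 were 0.0234 ± 0.00533 against 0.156 ± 0.0172 (SD, n = 3), so nearly all reads of the pair came from Rpl3 in both groups. The summed level of the 16 cardiomyocyte markers, Rpl3l included, was also lower in the AAV9-hFNDC4 libraries. It was 48.2 to 49.8 CPM, against 56.5 to 58.4 CPM in the AAV9-CTRL libraries. Most of the sum was Tnnt2, at 44.6 CPM on average, and the fall of Rpl3l is itself part of the fall of the sum. The part of these markers in the result was not tested.

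Rps27l, a paralogue of Rps27 and a known p53 target (chromosome 9, 66946086 to 66949516, plus strand), had 62.1, 60.8 and 54.2 CPM against 138, 156 and 147 CPM. Its log2 fold change was -1.31 (SE 0.11, adjusted p = 1.09e-05), and that of Rps27 was -1.01 (SE 0.12). Counts of Rps27l per 100 of Rps27 were 13.8, 13.6 and 11.7 against 18.1, 14.9 and 15.7, without overlap. Rpl22l1, the paralogue of the RNA-binding protein Rpl22, had 223, 214 and 208 CPM against 358, 492 and 446 CPM, a log2 fold change of -1.01 (SE 0.12). Rpl22 itself had 159, 172 and 167 CPM against 224, 286 and 260 CPM, a log2 fold change of -0.63 (SE 0.11). Counts of Rpl22l1 per 100 of Rpl22 were 140, 125 and 125 against 160, 172 and 172, again without overlap.

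In the other pairs the ratios differed in both directions. Counts of Rpl36al per 100 of Rpl36a were 52.7 ± 3.01 against 58.2 ± 1.02 (SD, n = 3), with log2 fold changes of -0.81 and -0.66. Those of Rpl39l, a paralogue known from germ cells, per 100 of Rpl39 overlapped at 37.4 ± 1.66 against 37.1 ± 2.58 (SD, n = 3), as did those of Rpl7l1 per 100 of Rpl7 at 13.5 ± 0.873 against 12.5 ± 2.12 (SD, n = 3). The processed pseudogenes Rpl6l and Rpl32l have a single exon, in contrast to Rpl6 and Rpl32; reads of the main gene could not be told apart where the sequences are shared. Rpl6l per 100 of Rpl6 was 13.7 ± 0.460 against 11.4 ± 0.740 (SD, n = 3), the only pair in which the paralogue's share was higher without overlap. Rpl32l fell by 1.73 on the log2 scale (SE 0.31), from 3.50 ± 0.753 to 1.05 ± 0.207 CPM (SD, n = 3), and Rpl32 had a log2 fold change of -0.70 (SE 0.12). Rpl32l per 100 of Rpl32 was 0.142 ± 0.0286 against 0.289 ± 0.0306 (SD, n = 3), without overlap.

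**Figure D4:**
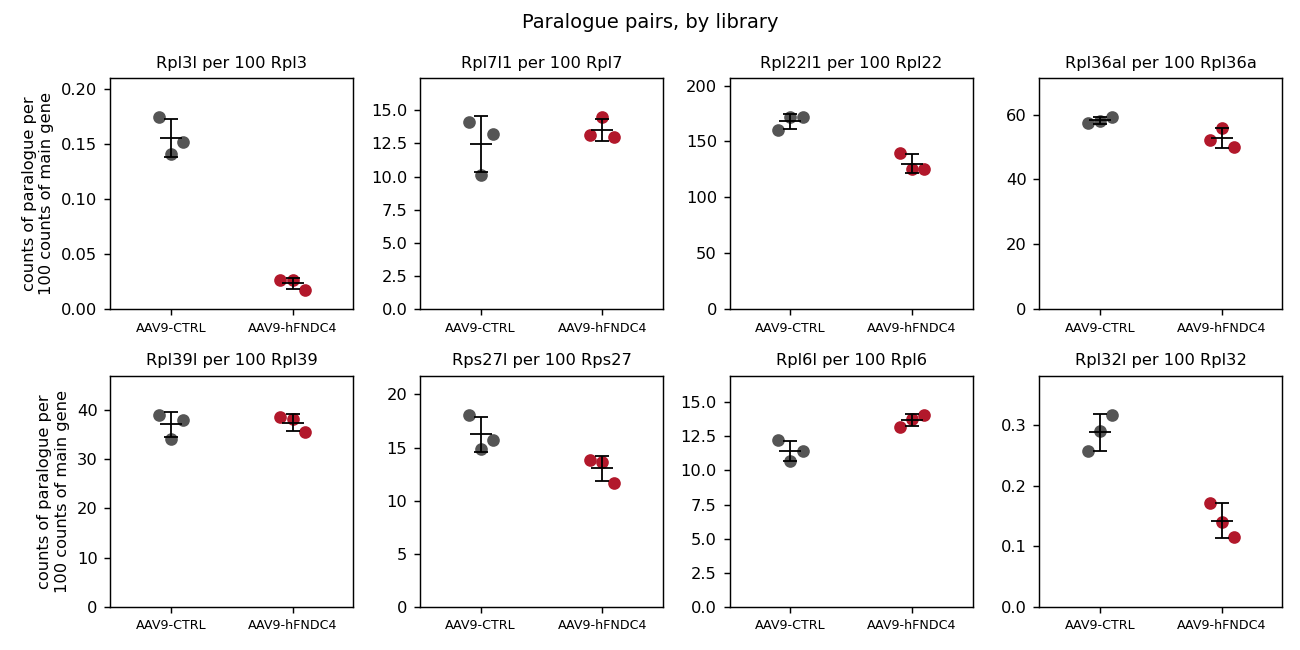
Counts of each paralogue per 100 counts of its main gene (vertical axes start at 0) in each library, with the mean ± SD of 3. Rpl3l, Rpl22l1, Rpl36al, Rps27l and Rpl32l have lower ratios in every AAV9-hFNDC4 library, Rpl6l higher ones, and Rpl7l1 and Rpl39l overlap.

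Ribosomal protein transcripts are short, and the shorter transcripts in the table had lower fold changes than the longer ones. Of the 85 members, 62 lay in the shortest decile of tested genes (102 to 963 nt), where the other genes had a median log2 fold change of -0.42 and 43.8% were called lower, against -0.85 for the members there. In the next decile (964 to 1410 nt), 16 members had a median of -0.72 and the other genes one of -0.31. Among the members themselves, Spearman's rho between log2 fold change and length was 0.509, and over the 13392 tested genes with a length it was 0.317, both as descriptions. After a loess correction for length in each library, 75 of 85 members were called lower and 0 higher, with a median of -0.40, while 24.1% of all genes were called lower. The 10 that lost the call were Rpl3, Rpl6l, Rpl7a, Rpl10a, Rpl19, Rpl21, Rpl29, Rpl36a, Rps6 and Rps24. Rps15a and Rps20 moved the other way, to -1.19 and -0.998, and their annotated transcripts are unusually long at 5130 and 3706 nt. What length stands for in these libraries was not tested.

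**Figure D5:**
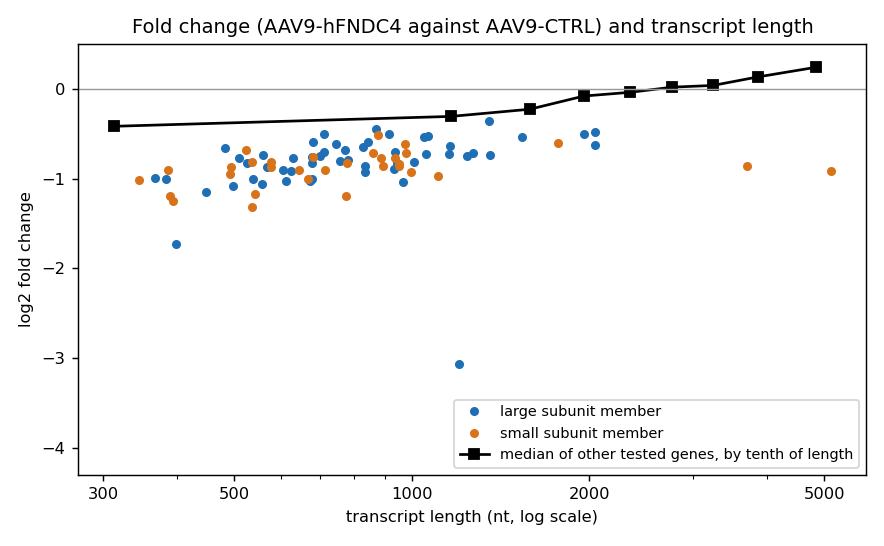
Log2 fold change (vertical axis) against transcript length in nt (log scale) for the 85 members, with the median of all other tested genes in each decile of length as squares (the longest decile is left out). Members lie below the squares at the lengths they share.

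By mean CPM, 77 members lay in the highest decile of all tested genes, where 41.4% of the other genes were called lower and their median log2 fold change was -0.18. Summed fibroblast markers were higher in the libraries labelled AAV9-hFNDC4, at 3430 to 3950 CPM against 2060 to 2340 CPM (5 of 9 markers at 1 CPM). The sum came from collagen genes, Ddr2 and Pdgfra, while Dcn, Lum, Tcf21 and Postn averaged at most 0.116 CPM. Summed mural cell markers were also higher, at 568 to 636 CPM against 282 to 343 CPM (2 of 5), from Cspg4 and Pdgfrb, with Acta2, Myh11 and Rgs5 at 0.231, 0.282 and 0.0784 CPM on average. Leukocyte markers were lower at 19.8 to 22.6 CPM against 35.3 to 42.3 CPM (4 of 10), with Ptprc at 0.091 CPM on average, and endothelial markers were at 2.13 to 3.81 against 3.24 to 5.19 CPM (2 of 8), with Cdh5 at 0.0283 CPM. The part of these cell types in the fall of the ribosomal protein genes was not tested.

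Many ribosomal protein genes have processed pseudogenes elsewhere in the genome, which can take or lend reads. The median member had 57.4% of its 50-base stretches in the GENCODE vM21 transcripts of at least 1 other gene. This is a share of sequence, and how much of the counts it makes uncertain was not measured. Members with few shared stretches were lower too. The 9 with under 10% shared stretches, among them Rps3, Rpl8 and Rpl22, were all lower with a median log2 fold change of -0.86, against -0.78 for the 49 with at least 50%. Rows with pseudogene symbols held 4802 to 4864 counts in the AAV9-hFNDC4 libraries and 8046 to 10910 in the AAV9-CTRL libraries. Adding them to their members left all 85 lower. At 0.0138% to 0.0331% of a library's counts they could hardly move most members, so this says little about pseudogene reads. Exon bases were shared with other genes, on either strand, by at least 10% in 15 members, among them Rpl5, Rpl22l1, Rpl32, Rpl36al and Rps27a. No strand setting is stated, so reads from the shared bases cannot be assigned to a single gene. Which strand the other genes lie on was not examined.

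Of the 85 members, 64 had a RefSeq window of 250 bases before to 50 bases after the start outside chromosome 18. A run of at least 6 C or T beginning with C within 5 bases of the start was found in 27 of them, or 42.2%, against 13.2% of the 11503 tested genes and 11.9% of all 27025 genes with a window. The median log2 fold change was -0.81 with and -0.82 without the run. The letters CCGGAAG, searched on both strands over the window, were found in 26 members, or 40.6%, against 18.9% of tested genes and 9.93% of all genes, and the medians were -0.85 with and -0.80 without them. Members with and without either pattern thus had medians less than 0.1 apart, and a window without it says only that these letters were not found there.

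Fau and Rack1, ribosomal protein genes outside the naming pattern, fell too. Fau, a ubiquitin-like fusion with a small subunit protein, had 291 ± 7.06 against 597 ± 114 CPM, and Rack1, a scaffold on the small subunit, 1365 ± 15.9 against 2203 ± 241 CPM (SD, n = 3), with log2 fold changes of -1.03 and -0.69. Of 20 other genes with TOP transcripts, 14 (70%) were lower and 0 higher, with a median of -0.51, against 25.0% lower over all genes tested. Naca, Eef1b2, Btf3 and Eef1d fell by 0.87, 0.81, 0.77 and 0.64 on the log2 scale. The 6 that did not pass included the abundant elongation factors Eef1a1 at -0.23 and Eef2 at -0.13, and the poly(A)-binding protein Pabpc1 at -0.12.

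Of 69 genes of ribosome biogenesis, which make ribosomal RNA and assemble the subunits, 56 (81.2%) were lower and 0 higher, again against 25.0% and 22.1% over all genes tested. Their median was -0.73 on the log2 scale. Ebna1bp2, a large subunit assembly factor, fell by 1.53 (SE 0.13), Nhp2, a protein of H/ACA particles, by 1.41 (SE 0.14), Polr1d, a subunit of RNA polymerases I and III, by 1.10 (SE 0.10) and Eif6, which keeps free large subunits from joining, by 1.07 (SE 0.11). With the length correction, 58 were lower and 1 higher with a median of -0.64, so that the correction moved this median less than the members' median. The values of Ubtf and Polr1a, which serve RNA polymerase I, were -0.08 and -0.13 and did not pass. Some of the genes called lower, such as Utp15 and Nop14, overlapped between the groups, which no member did. AAV9-CTRL replicate 2 was the lowest control library for Ebna1bp2, Nhp2 and Eif6, though not for Polr1d, while it was the highest for most members.

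Regulators of ribosomal protein synthesis had calls in both directions, with 4 of 21 higher, 6 (28.6%) lower and 11 that did not pass, shares near those of all genes tested (22.1% and 25.0%). Sp1, a transcription factor of many promoters, was higher at 295 ± 13.4 against 165 ± 22.5 CPM, Mnt and Mxd4, partners of MAX that oppose MYC, were higher by 0.90 (SE 0.14) and 0.99 (SE 0.19), and Myc by 0.44 (SE 0.14). Mxd1, another partner of MAX that opposes MYC, went the other way and fell by 1.24 (SE 0.13). Max itself fell by 0.67 (SE 0.11) and Yy1 by 0.69 (SE 0.11). Mtor at 0.15, Larp1 at 0.00 and Gabpa at -0.21 did not pass, and Rps6 is both in this list and a member. Of 25 tested chaperones, import factors and surveillance genes, 13 (52%) were lower, 1 (Huwe1) higher and 11 did not pass. Naca and Nap1l1, both lower, are in this list and also among the TOP genes above. Mdm2, the ubiquitin ligase that free Rpl5 and Rpl11 bind, had 80.1 ± 8.97 against 189 ± 24.7 CPM (SD, n = 3), a log2 fold change of -1.24 (SE 0.13). Bccip fell by 1.09 (SE 0.11) and Tsr2, a carrier of Rps26, by 0.81 (SE 0.12).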

How the data were processed

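The authors deposited raw read counts per gene symbol for 6 libraries, with no normalization; fastp, HISAT2, HTSeq, R 3.2.0, DESeq2 and the builds GRCm38 and mm10 are named per the submitters' processing notes, without roles or parameters. The counts were tested with edgeR 4.0.16 under R 4.3.3 (filterByExpr defaults, 14663 genes, TMM, robust quasi-likelihood F test, Benjamini-Hochberg threshold 0.05). The SE is the size of the log2 fold change divided by the square root of F. CPM used TMM-scaled library sizes, except for markers, which used plain totals. Transcript lengths are medians over a gene's coding transcripts in GENCODE vM21, or over all its transcripts where it has none, as for Rpl6l and Rpl32l, found for 91.3% of tested genes; the loess span was 0.4. The members and lists were chosen with earlier results of these data known. Named were the 8 members with the largest fall, the 6 with the highest level per kb, the 4 nearest 0, paralogue pairs (Rpl6l and Rpl32l after their values were seen), 8 preset members and up to 4 genes per list; other names were picked after their values were seen. Alternatives were RLE, upper-quartile and no scaling, other filters, DESeq2 1.42.0, limma 3.58.1 (voom), a replicate block, length correction, added pseudogene rows, a minimum of 1000 counts and leaving out each library. Tests were checked on simulated data. The values of 1 member are not reported here.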

Additional observations from a re-analysis of the deposited data

How the results depend on the processing

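All 85 members kept a negative log2 fold change in every alternative run (83 of 83 with a minimum of 1000 counts). The call was held by 84 or 85 members except with the length correction (75) and the length correction with replicate block (66); under upper-quartile scaling, library totals and the replicate block, only Rpl3 lost it. With library totals only, the medians of all, large and small subunit members were -0.66, -0.60 and -0.71. With the length correction they were -0.40, -0.38 and -0.43, and the difference of small minus large was -0.043; with the length correction and replicate block they were -0.40, -0.38 and -0.43, with a difference of -0.044 and 2108 genes called higher over the table. Leaving out each library moved the difference of small minus large between -0.114 and -0.081, the latter without AAV9-CTRL replicate 2. In these cases the cause was not tested. Same-numbered libraries did not deviate together (correlations -0.14, -0.28 and -0.12, against -0.112 to 0.197 for libraries with different numbers). With 3 libraries per group, whose deviations from their mean are tied to each other, this cannot settle whether the numbers pair the samples. The replicate block alone gave 84 members lower. Calls of named members were lost in 20 of 512 comparisons with an alternative, 10 of them for Rpl3, and the counts of the other lists stayed within 1.5 times. Depth did not limit the members except Rpl3l and Rpl32l, which had 241 and 462 counts in all.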
